A study of Mus musculus with 12 samples.

Results

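The 12 liver libraries of this study fell into a low-share class of 4 and a high-share class of 8 by the part of their counts that lay on mitochondrially encoded genes. The members were chosen by this measured share alone: a library was placed in the low-share class where genes with a symbol beginning mt- held under 50% of its counts, and in the high-share class otherwise. The low-share class held low-dose replicate 3, medium-dose replicate 1 and high-dose replicates 1 and 3. The high-share class held the 3 controls, low-dose replicates 1 and 2, medium-dose replicates 2 and 3 and high-dose replicate 2. All mice were wild-type C57BL/6J, entered at 6 weeks of age, and every one of the 12 had carbon tetrachloride, a liver toxin, injected into the abdomen (200 µL of a 7.5% solution in olive oil, 2 times a week for 6 weeks). The control mice had the toxin alone, and the others were also gavaged each day over 2 weeks with the turmeric compound curcumin. The low dose was 25 mg/kg, the medium dose 50 mg/kg and the high dose 100 mg/kg. Each group had 3 mice, given by the labels as biological replicates. The labels state that 3 mice shared a cage, and livers never exposed to the toxin were not analysed here. The 2 share classes are not groups of the study. They were formed from a value measured in the same libraries, so a p-value between them describes an association across these 12 livers and not the effect of an assigned treatment.

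Mitochondria keep a small genome of their own, which encodes core subunits of the respiratory chain and the RNAs needed to make them. All other mitochondrial proteins, including most respiratory chain subunits, are encoded in the nucleus, made on cytosolic ribosomes and imported. Hepatocytes, the main cells of the liver, are rich in mitochondria, and their nuclear mRNA is dominated by transcripts for secreted plasma proteins such as albumin and the apolipoproteins and for enzymes of metabolism and detoxification.

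The mitochondrial share, which formed the classes and is given as a description only, was 43.0% in low-dose replicate 3, 48.3% in medium-dose replicate 1, 30.3% in high-dose replicate 1 and 42.1% in high-dose replicate 3. In the 8 high-share libraries its lowest value was 55.5%, its median 62.3% and its highest 64.7%. The values nearest the threshold were 48.3% (medium-dose replicate 1) just inside the low-share class and 55.5% (medium-dose replicate 2) just outside it. Another 10.9% to 16.1% of counts in low-share libraries, against 19.4% to 23.3% in high-share libraries, lay on 11 nuclear genes that are near-identical copies of mitochondrial ones. With the copies added to the mitochondrial genes, the share was 57.9% in low-dose replicate 3, 64.4% in medium-dose replicate 1, 41.2% in high-dose replicate 1 and 56.3% in high-dose replicate 3. In high-share libraries it was 74.9% to 87.0%, so the 50% threshold holds for symbols beginning mt- alone. With these copies and the 37 mitochondrial genes removed, 15722673 to 36377767 nuclear counts remained in low-share libraries, against 5180318 to 13672537 in high-share libraries, from total counts of 36015134 to 70376474 over all 12. A count of 3 corresponds to 0.0825 to 0.191 CPM (nuclear counts scaled to a common total) in low-share libraries, against 0.219 to 0.579 CPM in high-share libraries. One ID without a gene name in the reference took 0.844% to 1.67% of nuclear counts in low-share libraries, against 1.62% to 10.4% in high-share libraries. Its sequence was not checked for similarity to mitochondrial genes.

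**Figure D1:**
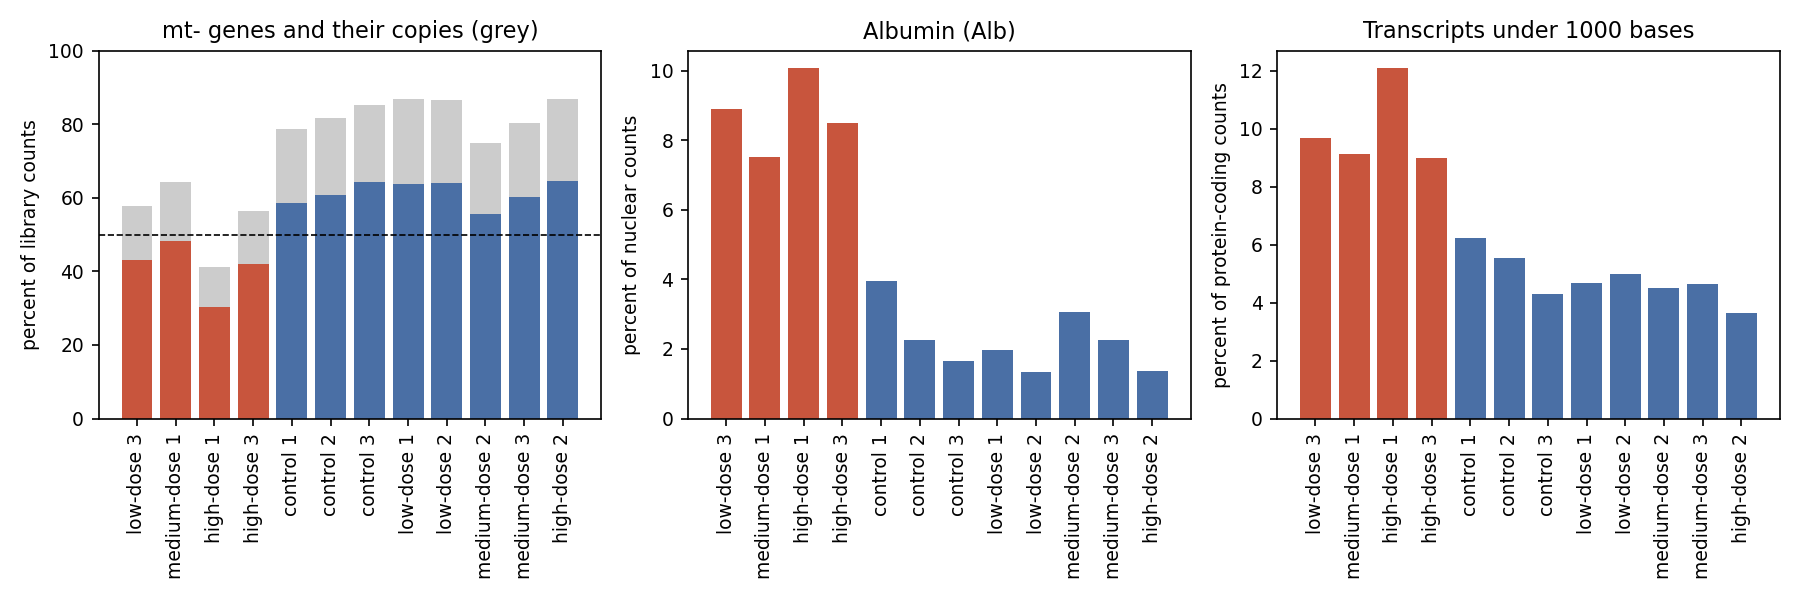
Mitochondrial share with the near-identical copies stacked in grey (left, percent of library counts, dashed line at the 50% threshold), albumin (middle, percent of nuclear counts) and protein-coding genes whose longest transcript is under 1000 bases (right, percent of protein-coding counts). Each bar is 1 library; red bars are the 4 low-share libraries and blue bars the 8 high-share libraries. The 4 low-share libraries have 7.53% to 10.1% albumin, and the highest high-share library has 3.96%.

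Nuclear genes differed widely between the classes, in both directions. Of 15880 nuclear genes tested with edgeR's quasi-likelihood test (Benjamini-Hochberg adjusted p under 0.05), 2575 (16.2%) were higher and 2143 (13.5%) lower in the 4 low-share libraries than in the 8 high-share libraries. No control is in the low-share class, so class and curcumin are partly confounded. In a second fit that compares libraries within a dose group, 1814 genes (11.4%) were higher and 1454 (9.16%) lower. Of these, 1730 higher and 1360 lower genes were called in both fits, and 0 genes were called in opposite directions. All 4 low-share libraries lay above all 8 high-share libraries for 1663 genes (10.5%) and below them for 1158 genes (7.29%). More than 2-fold differences were called for 1405 higher and 600 lower genes. These directions are relative to the bulk of nuclear genes, whose median log2 difference was -0.04. Scaled to nuclear totals alone, that median became -0.43 and the calls 1380 higher and 4990 lower. Scaled to whole-library totals, where the mitochondrial counts enter the denominator, it became 0.93 and the calls 8964 higher and 45 lower.

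The 3 dose groups each contain both classes and share no library, so the difference could be set out within each. The low-share side was higher at all 3 doses for 4554 genes (28.7%) and lower at all 3 for 4456 genes (28.1%). Among genes called higher, 2506 of 2575 had the same sign at all 3 doses, and among those called lower 2090 of 2143 did. The called genes were chosen with the same libraries, so these counts are descriptive. Across all 15880 genes, the within-dose log2 differences had a Spearman correlation of 0.48 between the low and medium dose, 0.49 between the low and high dose and 0.60 between the medium and high dose. Genes are not independent replicates, and 1 library stands alone on one side of each dose group.

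**Figure D2:**
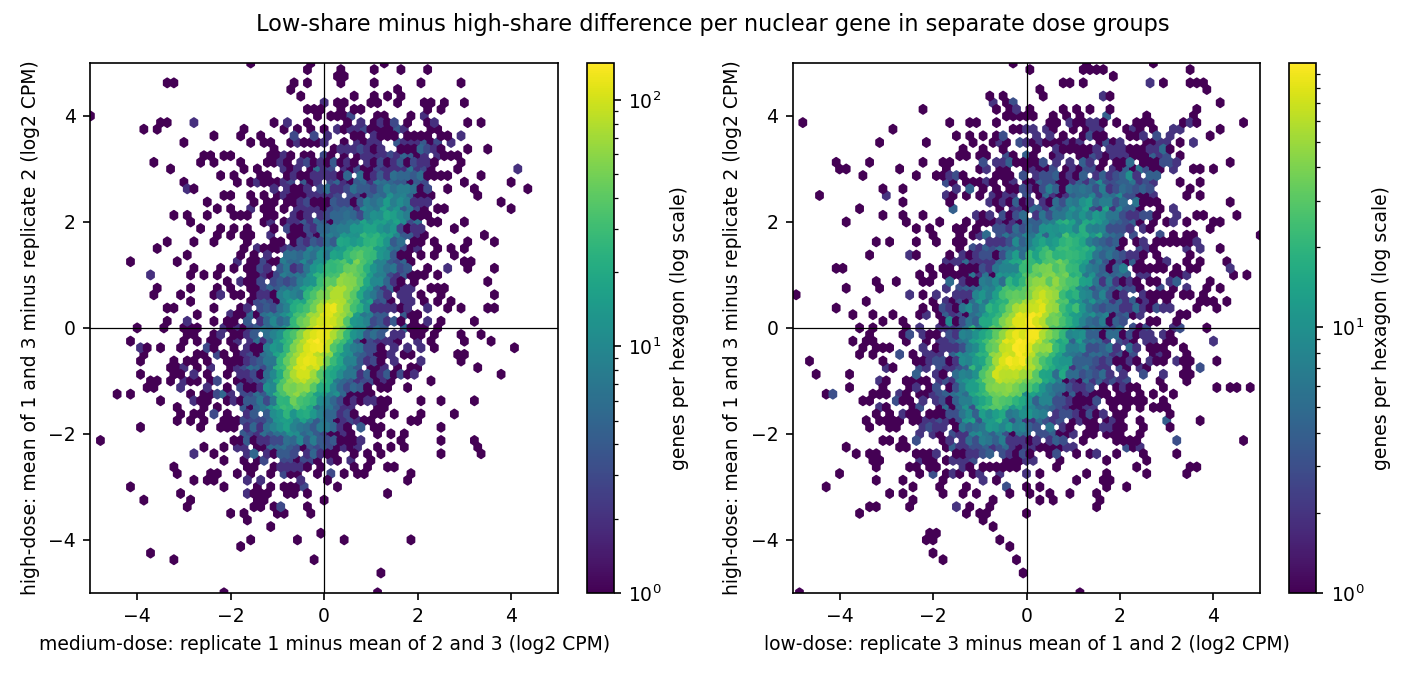
Difference in log2 CPM between low-share and high-share libraries for each of 15880 nuclear genes, at the high dose (vertical) against the medium dose (left) and against the low dose (right); colour gives the number of genes per hexagon on a log scale, and 54 genes lie past 5 on an axis. The cloud of genes runs from lower left to upper right in both panels, with Spearman correlations of 0.60 and 0.49.

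Secreted plasma proteins were higher in the low-share libraries almost as a whole. Albumin (Alb), the main protein of plasma, took 8.91% of nuclear counts in low-dose replicate 3, 7.53% in medium-dose replicate 1, 10.1% in high-dose replicate 1 and 8.49% in high-dose replicate 3, against a lowest value of 1.35%, a median of 2.11% and a highest value of 3.96% in the 8 high-share libraries. The ranges did not overlap, and the mean of 8.75% ± 1.05 in low-share libraries stood against 2.24% ± 0.897 in high-share libraries (SD, n = 4 and 8). An exact two-sided permutation test gave p = 0.00404 (0.00606 adjusted over 3 such tests), the smallest value that 4 libraries against 8 allow. With the unnamed ID left out of the total the ranges were 7.64% to 10.2% in low-share libraries, against 1.42% to 4.29% in high-share libraries. Of 24 plasma protein genes, 21 rose and 0 fell (20 and 0 within dose groups), with a median log2 difference of 1.51. In bulk tissue, fewer cells of a type and less RNA per cell cannot be told apart.

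Transthyretin (Ttr), a carrier of thyroid hormone, had 7472, 5014, 14673 and 5648 CPM in the 4 low-share libraries (in the order low-dose replicate 3, medium-dose replicate 1, high-dose replicates 1 and 3, used for all genes here), against 778, 974 and 1418 CPM as the lowest, median and highest of the 8 high-share libraries. The groups were far apart, with a log2 difference of 3.00 ± 0.27 (SE, edgeR adjusted p = 7.54e-06) that was again 3.00 within dose groups. Apoh, a phospholipid-binding plasma protein, had 1635, 1426, 2935 and 1319 CPM in low-share libraries, against 275, 371 and 569 CPM, and its log2 difference was 2.24 ± 0.24. Mup20, a urinary protein made in the liver, rose by a log2 difference of 2.03, though it has close relatives in a gene family and its reads may be split among them. Fetub, a liver-secreted cystatin, had 1534, 1209, 1928 and 1277 CPM in low-share libraries, against 163, 247 and 663 CPM in high-share libraries, with a log2 difference of 2.25 ± 0.32. Its upstream region is shown because it has the TATA letters (TATAAA, in capitals, searched on both strands) just before the start. It is the 250 bases before the RefSeq start (GRCm38.p6, chr16:22918132-22918381, plus strand).
Fetub: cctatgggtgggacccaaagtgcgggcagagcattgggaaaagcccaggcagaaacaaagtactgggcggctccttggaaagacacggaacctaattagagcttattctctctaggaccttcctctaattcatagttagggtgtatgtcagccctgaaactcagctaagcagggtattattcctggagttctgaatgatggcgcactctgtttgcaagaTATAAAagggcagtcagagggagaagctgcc
Of the 18 plasma protein genes with an entry in the RefSeq promoter table, 5 (27.8%) have these letters within 250 bases before and 50 after the start. So do 4 of 11 apolipoprotein genes (36.4%) and 9.65% of the 11043 tested genes with an entry. Over all called genes with an entry the share was 10.5% of higher and 8.02% of lower genes.

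Apolipoproteins, which carry lipid in blood, moved with them: 10 of 14 rose and 0 fell (9 and 0 within dose groups), with a median of 2.15. Apoa2, a component of high-density lipoprotein, had 13191, 9436, 24036 and 8747 CPM in low-share libraries, against 1101, 1436 and 2976 CPM in high-share libraries. Its log2 difference was 3.04 ± 0.31 (edgeR adjusted p = 1.19e-05). Apoc3, an inhibitor of triglyceride clearance, had 5916, 4601, 7944 and 4981 CPM, against 472, 685 and 1512 CPM in high-share libraries. Both genes separated the classes without overlap. Fabp1, the liver fatty acid-binding protein of the cytosol, had 10345, 6615, 17409 and 5367 CPM in low-share libraries, against 395, 758 and 1926 CPM, and was among the genes with the largest rise at a log2 difference of 3.45 ± 0.37.

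Complement and coagulation factors were mixed, with 13 of 28 higher (46.4%) and 4 lower (14.3%, near the 13.5% of all genes). Their median was 0.44 (0.01 when scaled to nuclear totals, 0.24 without high-dose replicate 1). Among those that rose were Serpinc1, the antithrombin gene (log2 difference 1.68), C8g, a subunit of the membrane attack complex (1.76), and Mbl1, a lectin of innate immunity (1.85). Those that fell were Hc, Masp2, F7 and F11, between -0.65 and -1.01. Of 16 acute phase genes 6 rose and 0 fell, and within dose groups 9 rose. Orm1, the acute phase glycoprotein orosomucoid, had 956, 813, 1687 and 1079 CPM in low-share libraries, against 136, 275 and 656 CPM in high-share libraries, and ceruloplasmin (Cp), the copper carrier, had 925, 682, 1047 and 715 CPM, against 171, 303 and 510 CPM.

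Enzymes of detoxification and fat oxidation were also higher. Of 25 genes of glutathione and antioxidant metabolism, 20 rose and 0 fell (17 and 0 within dose groups), with a median of 1.30 that was 0.84 without high-dose replicate 1. Gstm1, a glutathione transferase, had 1383, 1237, 2543 and 1489 CPM in low-share libraries, against 160, 289 and 473 CPM in high-share libraries (log2 difference 2.55 ± 0.26), although the Gstm genes are similar enough to share reads. Sod1, the cytosolic superoxide dismutase, had 1434, 1251, 2160 and 1024 CPM, against 276, 386 and 428 CPM. Among 28 cytochromes P450, 13 rose and 2 fell (12 and 2 within dose groups), with a median of 0.62 (0.26 when scaled to nuclear totals). Cyp3a11, a major drug-metabolizing enzyme of mouse liver, had 2240, 1580, 3394 and 1201 CPM in low-share libraries, against 331, 442 and 534 CPM in high-share libraries. The 2 that fell were Cyp3a25 (-0.93) and Cyp2b9 (-1.13), and reads of P450 relatives may also be divided between genes. Of 26 genes of fatty acid oxidation and peroxisomes 13 rose and 0 fell (9 and 0 within dose groups), with a median of 0.70 (0.28 when scaled to nuclear totals). Those that rose include Etfb, which passes electrons from fat oxidation to the respiratory chain (log2 difference 1.88), and Ech1, an enzyme for unsaturated fatty acids (1.86).

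The rest of hepatocyte metabolism moved less. Of 25 urea cycle and amino acid genes 6 rose and 2 fell (3 and 1 within dose groups), with a median of 0.22 that became -0.18 when scaled to nuclear totals and 0.34 without high-dose replicate 3. Otc, a urea cycle enzyme of the mitochondrial matrix, had 886, 924, 1030 and 909 CPM in low-share libraries, against 215, 295 and 774 CPM in high-share libraries. Arg1, the last enzyme of that cycle, had a log2 difference of 1.14 ± 0.23. In lipid synthesis 2 of 23 genes rose (8.70%, under the 16.2% of all genes) and 0 fell. Those that rose were Hmgcs1, an early enzyme of cholesterol synthesis, at 1.90, and Sqle at 0.81, not called within dose groups. Of 17 hepatocyte transcription factors, 1 rose (5.88%, under the 16.2% of all genes) and 2 fell (11.8%, near the 13.5% of all genes). Foxa3 rose (0.57, not called within dose groups), and Nr1h4, the bile acid receptor (-0.79), and Onecut2 (-0.72) fell. The list median of -0.08 ran from -0.19 to -0.0025 as single libraries were left out (medium-dose replicate 1 and high-dose replicate 3). Both falling genes were above 0 when scaled to whole-library totals (0.17 for Nr1h4 and 0.26 for Onecut2).

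Nuclear genes for the respiratory chain had the largest share of higher members among the lists with at least 5 tested genes. Of 77 such genes, 71 rose and 0 fell (64 and 0 within dose groups), with a median log2 difference of 1.59 and all 77 above 0. The list was above 0 in its median at each dose, at 1.32 (low), 1.21 (medium) and 1.94 (high). Ndufa1, an accessory subunit of complex I, had 98.9, 81.3, 169 and 70.7 CPM in low-share libraries, against 7.14, 8.30 and 18.0 CPM in high-share libraries. The classes did not overlap, with a log2 difference of 3.40 ± 0.26 (edgeR adjusted p = 7.54e-06). Uqcr11, a small subunit of complex III, had 349, 318, 581 and 280 CPM, against 28.5, 48.7 and 95.03 CPM in high-share libraries. Another 2 complex I genes also separated the classes, Ndufa2 at 254, 226, 269 and 200 CPM, against 33.4, 49.6 and 68.7 CPM, and Ndufa9 at 156, 144, 209 and 115 CPM, against 27.3, 34.2 and 47.6 CPM.

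Promoters of nuclear respiratory genes are known to hold sites for the factor NRF1. Its core, GCGC followed by A, any base and GCGC again, was searched on both strands and lies in 17 of 63 respiratory chain promoters with a RefSeq entry (27.0%) and in 10.5% of all tested promoters. Ndufs5, a complex I subunit chosen here as the called gene with the smallest p whose upstream region has the letters, had 90.01, 70.7, 136 and 64.8 CPM in low-share libraries, against 14.5, 20.5 and 28.3 CPM in high-share libraries. Its 250 bases before the RefSeq start are shown with the match in capitals (GRCm38.p6, chr4:123718187-123718436, minus strand). A match of letters is a description of the sequence and says nothing on whether a factor was bound.
Ndufs5: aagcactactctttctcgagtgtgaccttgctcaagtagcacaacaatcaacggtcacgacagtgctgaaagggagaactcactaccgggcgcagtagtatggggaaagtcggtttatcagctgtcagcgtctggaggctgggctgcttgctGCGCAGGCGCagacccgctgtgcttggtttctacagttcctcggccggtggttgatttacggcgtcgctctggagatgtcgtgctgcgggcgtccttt

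Other nuclear genes for mitochondria did not move as a block. Of 77 mitochondrial ribosomal protein genes 38 rose and 2 fell (29 and 1 within dose groups), with a median of 0.49 (0.12 when scaled to nuclear totals). Mrpl16, of the large mitochondrial ribosomal subunit, had 31.6, 29.8, 44.5 and 24.8 CPM in low-share libraries, against 3.38, 7.58 and 8.12 CPM in high-share libraries. Among 29 genes that maintain mitochondrial DNA and process or stabilize its RNA, 5 rose (17.2%, near the 16.2% of all genes) and 6 fell (20.7%, against 13.5% of all genes). Their median was -0.25 (-0.16 without high-dose replicate 1). Hsd17b10, a subunit of mitochondrial RNase P, rose (log2 difference 1.55), as did Slirp, a stabilizer of mitochondrial mRNA (1.22, overlapping 2 genes on the opposite strand), and Lrpprc, its partner (0.70). Fastkd1, of a family that regulates mitochondrial RNA, fell, with 39.0, 45.4, 26.7 and 35.0 CPM in low-share libraries, against 51.3, 71.9 and 85.9 CPM in high-share libraries. The transcription factor of the mitochondrial genome, Tfam, had 45.1, 46.2, 61.1 and 46.1 CPM, against 21.3, 35.2 and 41.2 CPM, a log2 difference of 0.56 ± 0.16 (edgeR adjusted p = 0.0142). Ppargc1a, a coactivator that drives mitochondrial biogenesis, had 50.0, 43.6, 22.6 and 41.0 CPM in low-share libraries, against 22.4, 34.8 and 50.3 CPM in high-share libraries. Its classes overlapped throughout (log2 difference 0.12 ± 0.23, edgeR adjusted p = 0.723). In the biogenesis and import list 12 of 28 genes rose (42.9%, 7 genes within dose groups), led by the chaperonin Hspe1 (1.37) and prohibitin Phb (1.04). Hspe1 overlaps Hspd1, a more abundant gene on the opposite strand. In this list 4 genes fell (14.3%, near the 13.5% of all genes), among them Mfn1, Ppargc1b and Esrra.

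Within the mitochondrial transcripts the proportions were close between classes. The main subunit of complex IV, mt-Co1, took 32.1% to 34.8% of mitochondrial counts in low-share libraries, against 32.4% to 34.1% in high-share libraries, and the 2 mitochondrial rRNAs took 1.24% to 2.03%, against 0.616% to 1.88%. Some copies had nearly the same counts as their mitochondrial gene over all libraries. Gm28661 had 0.9999 times the counts of mt-Co2, Gm28437 had 1.001 times those of mt-Co3 and Gm28438 had 1.0003 times those of mt-Nd3. Others had fewer, with Gm28439 at 0.344 times mt-Nd4 and Gm13340 at 0.00864 times mt-Co1. Since copies may share reads with mitochondrial genes, the latter were not compared singly. How much of the copy counts is mitochondrial RNA was not tested.

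Cytosolic ribosomal proteins rose in 64 of 80 genes and fell in 0 (53 and 0 within dose groups), with a median of 1.30. Rpl26 had 636, 604, 892 and 495.3 CPM in low-share libraries, against 138, 197 and 291 CPM in high-share libraries, without overlap (log2 difference 1.65 ± 0.20). Rps27l, a ribosomal protein-like gene that responds to p53, had 386, 356, 554 and 274 CPM, against 32.2, 46.1 and 99.0 CPM in high-share libraries. Genes of this class have many processed pseudogenes that may take part of their reads. Rpl37 had 410, 355, 565 and 296 CPM, against 71.9, 118 and 174 CPM in high-share libraries. The ETS letters CCGGAAG lie in 24 of 60 ribosomal protein promoters with an entry (40.0%), in 25 of 68 mitochondrial ribosomal ones (36.8%) and in 18.8% of all tested promoters. Over all called genes they lie in 20.5% of promoters of higher genes and 23.6% of those of lower genes. The upstream region of Rpl37 is shown with these letters in capitals (GRCm38.p6, chr15:5116363-5116612, plus strand, RefSeq).
Rpl37: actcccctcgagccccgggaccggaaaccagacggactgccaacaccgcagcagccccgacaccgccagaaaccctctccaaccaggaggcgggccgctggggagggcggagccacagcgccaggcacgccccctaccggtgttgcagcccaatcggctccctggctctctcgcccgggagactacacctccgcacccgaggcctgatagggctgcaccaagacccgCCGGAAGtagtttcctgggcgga
Proteasome subunits had 18 of 31 genes higher and 0 lower (13 and 0 within dose groups), with a median of 0.52 that became 0.10 when scaled to nuclear totals. Psmb5, a catalytic subunit, had 127, 84.4, 169 and 81.0 CPM in low-share libraries, against 12.5, 20.4 and 37.2 CPM in high-share libraries.

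**Figure D3:**
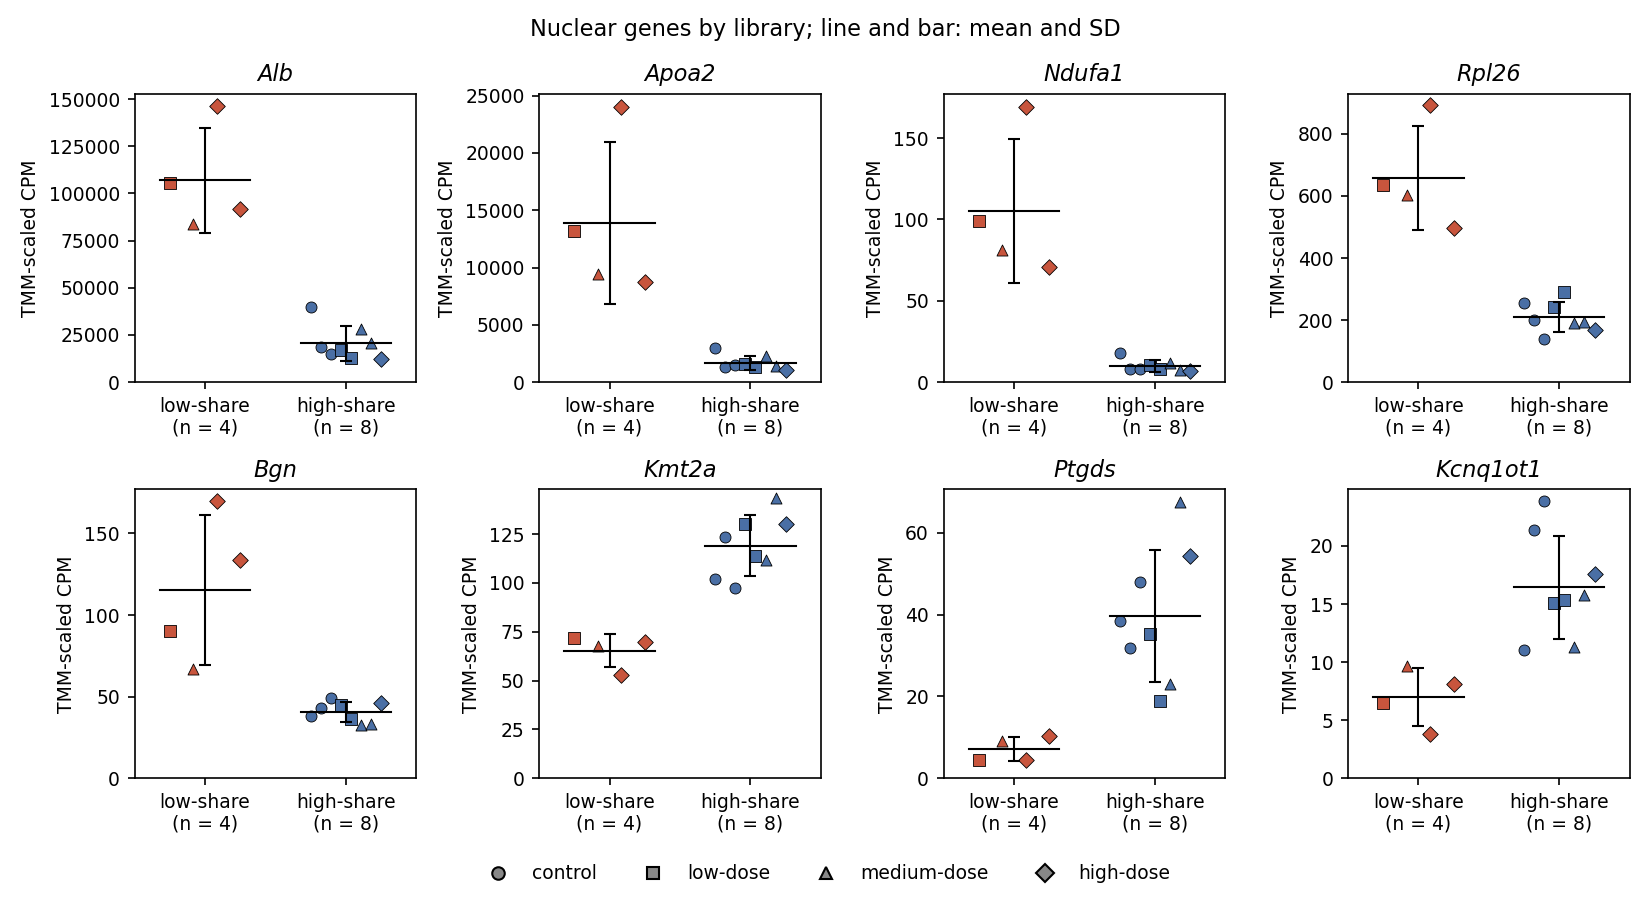
TMM-scaled CPM of 8 nuclear genes, each symbol 1 library, with the low-share class (red, n = 4) left of the high-share class (blue, n = 8); symbol shape gives the dose group, and the line and bar are the mean and SD. Alb, Apoa2, Ndufa1, Rpl26 and Bgn are higher and Kmt2a, Ptgds and Kcnq1ot1 lower in low-share libraries, with no overlap in any panel; the lower directions hold for nuclear scaling only in the case of Kmt2a, which is at 0.11 with whole-library totals.

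Genes that fell were of other kinds. Of 31 large chromatin regulators 17 fell and 0 rose (11 and 0 within dose groups), with a median of -0.46 and all 31 below 0; scaled to whole-library totals the median was 0.50. Kmt2a, a histone H3 methyltransferase, had 71.5, 67.4, 52.6 and 69.7 CPM in low-share libraries, against 97.3, 119 and 143 CPM in high-share libraries, without overlap (log2 difference -0.86 ± 0.15, edgeR adjusted p = 0.000566). Chd8, a chromatin remodeller, had 56.6, 62.8, 49.0 and 60.5 CPM, against 76.6, 102 and 126 CPM in high-share libraries, and Ncoa6, a nuclear receptor coactivator, differed by -0.79. Of 10 noncoding RNAs kept in the nucleus 3 fell and 0 rose, with a median of -0.68 (0.27 with whole-library totals, -0.40 without high-dose replicate 1). Kcnq1ot1, the antisense RNA of an imprinted cluster, had 6.49, 9.67, 3.79 and 8.10 CPM in low-share libraries, against 11.1, 15.6 and 23.9 CPM in high-share libraries. Meg3, an imprinted noncoding RNA, and Jpx, an activator of Xist, differed by -1.13 and -0.92. The most widely used markers of nuclear RNA did not pass the test: Malat1 had 389, 450, 269 and 382 CPM in low-share libraries, against 378, 536 and 653 CPM (log2 difference -0.49 ± 0.20, edgeR adjusted p = 0.0795), and Neat1 differed by -0.83 ± 0.40 (edgeR adjusted p = 0.138).

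Host genes of small nucleolar RNAs had 6 of 14 lower and 0 higher (4 and 0 within dose groups), with a median of -0.37 (0.58 with whole-library totals, -0.19 without high-dose replicate 1). Snhg12 had 52.5, 54.9, 30.4 and 53.8 CPM in low-share libraries, against 72.9, 85.7 and 110 CPM in high-share libraries, and Snhg17 differed by -0.94. In the list of splicing factors and CLK kinases 4 of 30 fell (13.3%, near the 13.5% of all genes; 2 within dose groups) and 0 rose. Those that fell include Clk2 (-0.81) and Clk3 (-0.92), kinases that phosphorylate splicing factors. That list's median of -0.33 became -0.04 without high-dose replicate 1.

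The largest falls came from a mixed set. Cyp2d37-ps, a P450 pseudogene that may share reads with its relatives, had 1.21, 0.327, 0.359 and 1.72 CPM in low-share libraries, against 2.25, 15.4 and 21.1 CPM in high-share libraries. Ptgds, a prostaglandin D2 synthase that also carries lipids, had 4.53, 9.21, 4.55 and 10.2 CPM, against 19.0, 36.9 and 67.4 CPM in high-share libraries (log2 difference -2.49 ± 0.37). Gbp11, an interferon-inducible GTPase of a multigene family, differed by -1.99, the sulfotransferase Sult5a1 by -1.93 and Sectm1a by -1.72. Another 4 genes, Phf2os1 (-2.29), AL732309.1 (-2.02), Leng9 (-1.85) and Lrrc61 (-1.70), share exon sequence with a neighbour, so their reads are uncertain. The neighbour of AL732309.1, Ndor1, is on the same strand, so knowledge of strand would not settle its reads. Those of Phf2os1, Leng9 and Lrrc61 are on the opposite strand. The gene with the largest rise, Aarsd1 (log2 difference 5.42), is uncertain in the way of AL732309.1, since it shares same-strand exons with Gm27029, which differed by -2.29. Also among the genes with large rises were Igfbp6, a growth factor-binding protein, with 9.85, 9.41, 69.5 and 67.0 CPM in low-share libraries, against 1.78, 3.67 and 6.85 CPM in high-share libraries, and Atox1, a copper chaperone, with 138, 98.9, 274 and 71.2 CPM, against 11.8, 22.8 and 27.5 CPM.

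**Figure D4:**
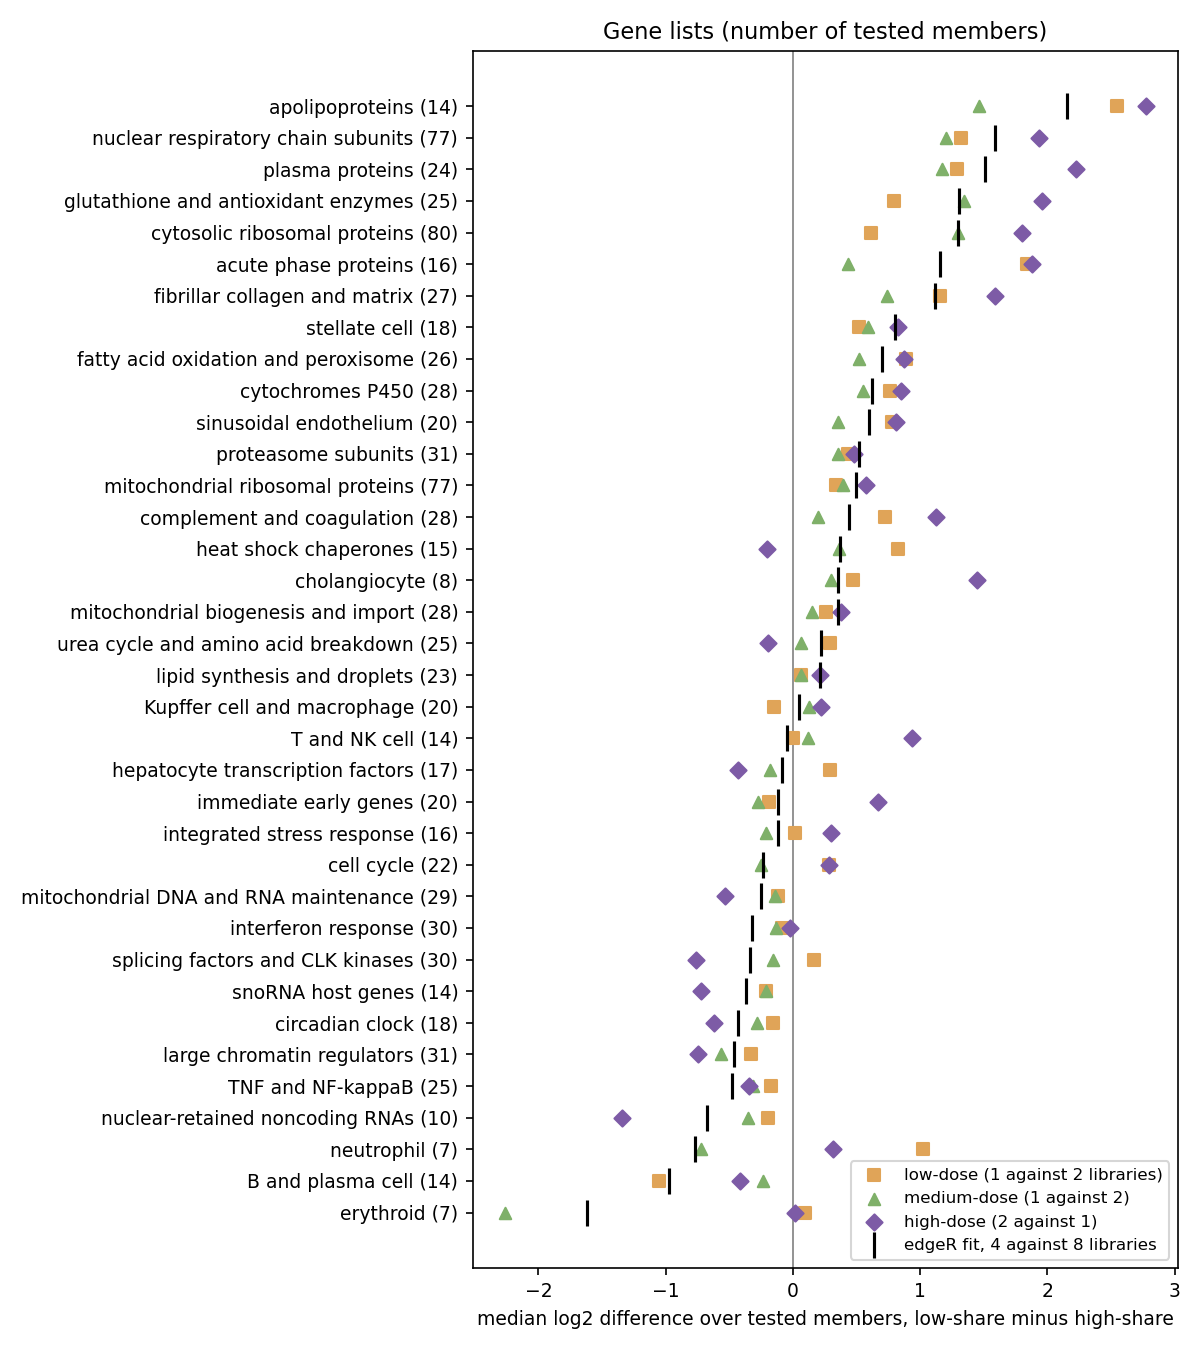
Median log2 difference, low-share minus high-share, of each gene list with at least 5 tested members (number in brackets); the black tick is the edgeR fit of 4 against 8 libraries, and the symbols are the differences inside each dose group. Apolipoproteins (2.15), respiratory chain subunits (1.59) and plasma proteins (1.51) stand at the top with all 3 doses above 0, and chromatin regulators (-0.46) have all 3 doses below 0.

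Genes of the scar-forming compartment were higher as well. Of 27 fibrillar collagen and matrix genes 18 rose and 0 fell (13 and 0 within dose groups), with a median of 1.11. Col1a1, the main chain of type I collagen, had 24.1, 19.995, 125 and 48.1 CPM in low-share libraries, against 3.81, 9.23 and 23.6 CPM in high-share libraries, with a slight overlap (log2 difference 2.16 ± 0.53, edgeR adjusted p = 0.00841). High-dose replicates 1 and 3 were the highest. Bgn, the proteoglycan biglycan, had 90.4, 67.1, 170 and 134 CPM, against 32.7, 40.5 and 49.4 CPM, and Sparc, a matricellular protein, had 40.0, 42.3, 159 and 60.4 CPM, against 18.9, 21.0 and 29.0 CPM in high-share libraries. Loxl1, a cross-linker of elastin, differed by 2.74 ± 0.47. Of 18 stellate cell genes 9 rose and 0 fell (6 and 0 within dose groups), among them Ecm1 (1.03) and Reln (0.94). Reln, a glycoprotein of stellate cells, had 57.7, 55.1, 44.2 and 50.9 CPM in low-share libraries, against 21.2, 27.2 and 35.2 CPM.

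Sinusoidal endothelial genes had 10 of 20 higher and 0 lower (8 and 0 within dose groups), with a median of 0.60 (0.19 when scaled to nuclear totals). Oit3, an endothelial gene of the sinusoid, had 12.7, 12.4, 17.0 and 10.4 CPM in low-share libraries, against 1.55, 5.37 and 7.85 CPM in high-share libraries, and Bmp2, an endothelial signal for iron control, differed by 0.76. Of 20 Kupffer cell and macrophage genes 3 rose (15.0%, near the 16.2% of all genes) and 1 fell (1 and 1 within dose groups). Their median of 0.05 was -0.37 without high-dose replicate 1 and 0.17 without control replicate 2. C1qa, a complement subunit made by macrophages, differed by 1.08 ± 0.24 with overlap between the classes. Among 14 B and plasma cell genes 6 fell and 1 rose (2 and 1 within dose groups). Pax5, the B cell transcription factor, had 3.31, 4.57, 2.75 and 2.33 CPM in low-share libraries, against 8.78, 12.0 and 20.4 CPM, and Cd22, an inhibitory receptor of B cells, differed by -1.47 but was not called within dose groups. Control replicate 2 had the most Cd22, at 34.2 CPM, and the list median of -0.98 was -0.76 without that library.

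Summed levels of cell type markers separated the classes for hepatocytes and stellate cells. The 12 hepatocyte markers summed to 126640 to 234200 CPM in low-share libraries, against 24353 to 59408 CPM in high-share libraries, and the 10 stellate cell and fibroblast markers to 346 to 1114 CPM, against 160 to 307 CPM. The hepatocyte sum rests largely on albumin, which alone had 105740 CPM in low-dose replicate 3, where the sum was 163240 CPM. Of the 12 hepatocyte markers 7 were called higher and 0 lower, and Apob, Fga, Fgg and Cps1 were among those not called. Of the 10 stellate cell and fibroblast markers 7 were called higher and 0 lower. The 9 endothelial markers (309 to 373 CPM, against 195 to 332 CPM), 9 Kupffer cell markers (224 to 406 CPM, against 226 to 714 CPM) and 9 T and NK cell markers (10.4 to 16.3 CPM, against 8.43 to 24.9 CPM) overlapped. Sums of the neutrophil (20.4 to 32.7 CPM, against 26.7 to 173 CPM), B and plasma cell (44.1 to 171 CPM, against 55.8 to 189 CPM), cholangiocyte (85.2 to 156 CPM, against 81.2 to 139 CPM) and pancreas markers (7.12 to 14.4 CPM, against 3.22 to 10.8 CPM) overlapped too. Erythroid markers, a measure of blood in the sample, summed to 504 to 1086 CPM in low-share libraries, against 760 to 6136 CPM in high-share libraries, and the globin genes Hbb-bs and Hbb-bt were called lower (Hbb-bs fell by 2.13 on the log2 scale), though neither was called within dose groups. None of these lists had a marker at 0 in every library. High-dose replicate 1 stood apart in skeletal muscle markers, 5 of which summed to 534 CPM, against at most 5.81 CPM in any other library and with Myh4 at 0 in all, and 5 adipose markers at 7.13 CPM, against at most 0.441 CPM elsewhere, with Cidea, Lep and Plin1 at 0. The calls for Mylpf and Tnni2, muscle genes, rest on that library and were below 0 without it (-0.41 and -0.85). Without high-dose replicate 1, edgeR called 1928 genes higher and 1338 lower. The part of the other markers in the results was not tested.

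Signalling and stress lists had calls in both directions, at shares to be read against the 16.2% of all genes called higher and 13.5% called lower. Of 25 TNF and NF-κB genes 6 fell (24.0%) and 3 rose (4 and 1 within dose groups). Their median was -0.48 (-0.26 within dose groups, -0.18 in the curcumin libraries only and 0.50 with whole-library totals). Nfkb1, a subunit of the NF-κB factor, had 23.5, 24.8, 26.7 and 29.0 CPM in low-share libraries, against 33.0, 36.7 and 44.96 CPM in high-share libraries (log2 difference -0.55 ± 0.13), and Rela, its partner, differed by -0.51. Cxcl1, a neutrophil-attracting chemokine, had 50.0, 51.0, 21.9 and 38.6 CPM, against 60.8, 96.2 and 194 CPM. Tnf itself had 0.793, 1.11, 1.44 and 1.51 CPM in low-share libraries, against 0.507, 1.41 and 6.31 CPM (edgeR adjusted p = 0.366), and Slamf8, a macrophage receptor, had 1.12, 0, 1.40 and 0.892 CPM, against 0.671, 1.39 and 3.65 CPM (edgeR adjusted p = 0.253). Of 30 interferon response genes 3 were higher and 6 lower, and within dose groups 3 and 2. Isg15, a ubiquitin-like protein, and Bst2, a virus-tethering protein, rose by log2 differences of 1.25 and 1.69, and Stat2 and Irf9, which transmit the interferon signal, differed by -1.20 and -0.64.

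Of 20 immediate early genes, which respond within minutes to handling or injury, 0 were called between the classes (edgeR) and 1 was called higher within dose groups. Heat shock chaperones had 4 of 15 higher (1 within dose groups), among them the constitutive chaperone Hspa8 (log2 difference 1.10), and 1 lower, the factor Hsf1 (-0.64). The integrated stress response had 2 of 16 higher (12.5%, under the 16.2% of all genes), Atf5 (1.35) and Eif4ebp1 (1.11). Of 18 circadian clock genes 3 fell (16.7%), Arntl (-1.38), Nfil3 (-0.83) and Tef (-0.77). Of 22 cell cycle genes 2 rose (9.09%), Pcna (0.63) and Rrm2 (1.02). Arntl, Pcna and Rrm2 were not called within dose groups. Clock genes cycle over the day, and the hour at which each liver was taken was not used here.

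Called genes differed by transcript length, a property that the class rule did not use. Of 560 protein-coding genes whose longest transcript is under 1000 bases, 281 (50.2%) were higher and 30 (5.36%) lower in low-share libraries, with a median log2 difference of 0.91. From 1000 to 2000 bases 28.3% of 2224 genes were higher and 9.53% lower, and at 6000 bases or more 7.89% of 1850 were higher and 17.5% lower. The gradient was clearest in the most abundant 25% of genes. There 126 of 161 short genes (78.3%) were higher and 393 of 1294 genes of 4000 bases or more (30.4%) lower. In the next 25% by abundance, 66.1% of short genes were higher, against 11.5% of genes of 4000 bases or more. In the 25% after that, these shares were 42.0% and 10.4%. The gradient was weak in the least abundant 25%. There 18.5% of 168 short genes were higher, against 5.06% of genes of 4000 bases or more. The shares called lower there were 5.95% and 3.14%. Short genes took a median of 9.42% and at most 12.1% of protein-coding counts in low-share libraries, against a median of 4.66% and at most 6.24% in high-share libraries, and genes of 4000 bases or more took 17.6% to 23.9%, against 29.0% to 33.4%. The classes overlapped in neither. Across 13249 protein-coding genes the log2 difference had a Spearman correlation of -0.18 with transcript length and -0.09 with GC content. Some lists that rose have short transcripts (median 1046 bases for the respiratory chain and 1108 for ribosomal proteins), and the chromatin regulators have long ones (9423). Other lists with many higher genes have longer transcripts. Their median was 5316 bases for fibrillar collagen and matrix, 3754.5 for sinusoidal endothelium, 2883 for stellate cells and 2492.5 for fatty acid oxidation. The part of transcript length, fragment length or RNA quality in the list results was not tested.

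**Figure D5:**
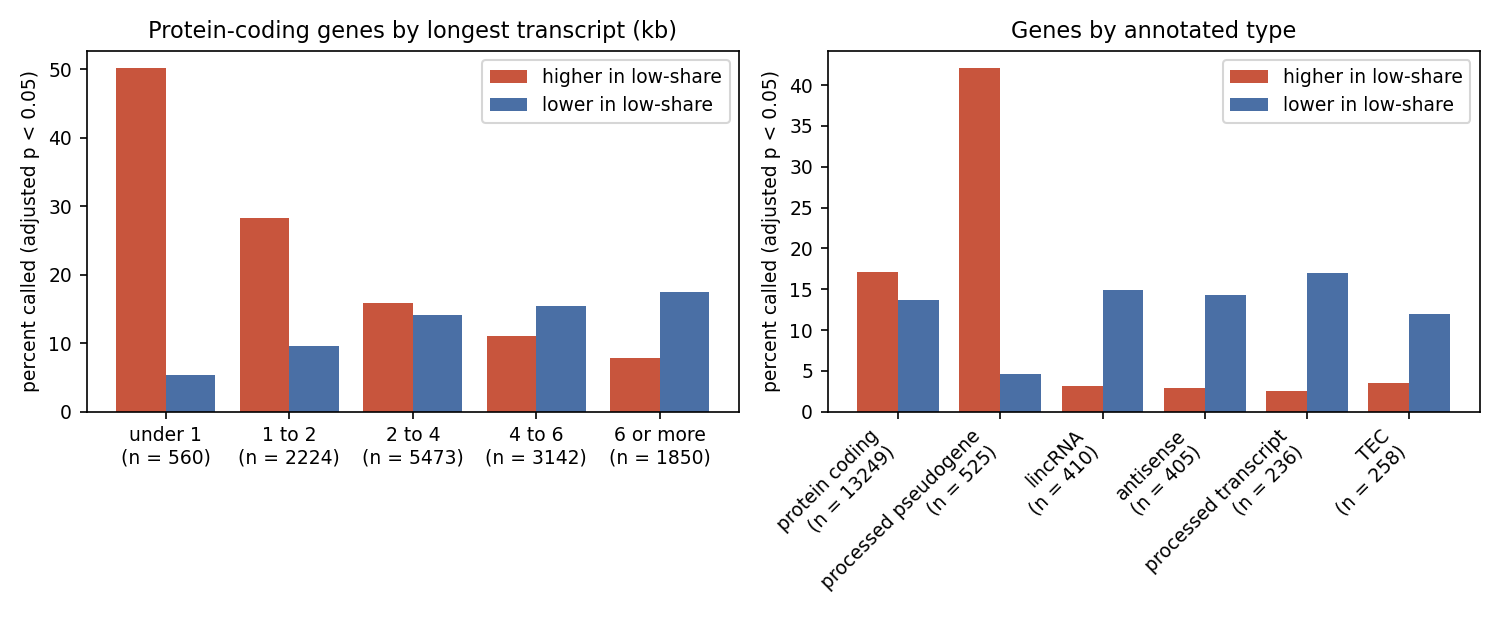
Percent of tested genes called higher (red) or lower (blue) in low-share libraries at an edgeR adjusted p under 0.05, for protein-coding genes by longest annotated transcript (left) and for the larger annotated gene types (right); the number of genes is under each pair. Of short protein-coding genes 50.2% and of processed pseudogenes 42.1% are called higher.

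Gene types differed too. Of 525 processed pseudogenes 221 (42.1%) were higher, with a median of 0.83, and these may share reads with their short parent mRNAs. Among 410 long intergenic noncoding RNAs 61 (14.9%) were lower and 13 (3.17%) higher. Among 405 antisense RNAs 58 (14.3%) were lower and 12 (2.96%) higher. The lower shares are near the 13.5% of all genes, and the higher shares are under the 16.2% of all genes. Long noncoding RNA took 0.745% to 1.81% of nuclear counts in low-share libraries, against 2.15% to 2.99% in high-share libraries, and the classes did not overlap.

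The nuclear counts of low-share libraries were concentrated on fewer genes. The 100 highest genes of each library took 37.3% ± 3.61 in low-share libraries, against 26.8% ± 3.24 in high-share libraries (SD, n = 4 and 8), without overlap (34.0% to 42.4%, against 24.2% to 32.7%; exact two-sided permutation p = 0.00404, 0.00606 adjusted). This difference was 10.4 percentage points, and that of albumin alone was 6.51, so the 2 tests are not independent. For the 10 highest genes the classes overlapped (15.0% to 20.7%, against 7.77% to 16.7%). Thinned to 5180318 nuclear counts each, low-share libraries had 18511 ± 259 genes with at least 1 count, against 18186 ± 630 in high-share libraries (exact two-sided permutation p = 0.343), a difference that was not larger than the spread. With at least 5 counts required, the difference turned to -519 genes (exact p = 0.0202).

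A further view uses the 8 high-share libraries alone, where the share still ran from 55.5% to 64.7%. A slope on the share called 0 of 12642 genes by edgeR (777 at an unadjusted p under 0.05), so no gene can be named. Slopes per 10 percentage points less mitochondrial share were above 0 for 47.8% of all genes, and 1480 of 2325 genes called higher between the classes (63.7%) and 1580 of 2083 called lower (75.9%) had the matching sign. The lists did not all follow. The median slope was 1.45 for acute phase genes, 0.71 for apolipoproteins and 0.39 for plasma proteins, but 0.18 for the respiratory chain, -0.48 for cytosolic ribosomal proteins and -0.15 for matrix genes.

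Each dose was also set against control, which shares its 3 libraries among the comparisons. Without the share class in the fit edgeR called 0 genes at any dose, and with it again 0. At an unadjusted p under 0.05 there were 2118 genes at the high dose without the class and 957 with it, 885 and 1188 at the medium dose, and 955 and 1266 at the low dose.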

How the data were processed

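Per the labels' protocols, total RNA was extracted from liver with TRIzol and made into libraries with a Hieff kit. The deposited values are raw counts, whole and not normalized, per Ensembl gene ID, with 1 column for each of the 12 libraries. The submitters' processing notes name fastp 0.23.4, STAR 2.7.10b, StringTie 2.2.1 and the mm39 build. How the counting treated strand is unknown here, as is whether reads fitting several genes were counted for each or divided. Names, transcript lengths and sequences came from GENCODE M21, which named 52073 of 56923 IDs (91.5%). The other IDs held 0.812% of counts. No gene coordinates of that build are given, and promoters came from the RefSeq table.

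Nuclear genes whose transcripts matched a mitochondrial one by BLAST+ 2.17.0 at an identity of 95% or more over 80% or more of their length were removed as copies (11 genes), as were 37 mitochondrial genes. The share was taken per column, and its 95% Wilson interval reached no more than 0.0161 percentage points to either side, which covers counting error only.

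Tests used R 4.3.3 and edgeR 4.0.16 (filterByExpr by share class, TMM on nuclear genes, robust glmQLFit, glmQLFTest) on all 12 libraries, with share class alone or with dose group, and Benjamini-Hochberg adjustment over 15880 genes at 0.05. CPM are TMM-scaled, and within-dose differences use log2 CPM with a prior count of 2. The SE of a log2 difference was derived from the test, as its absolute value divided by the square root of the quasi-likelihood F statistic. Genes called uncertain share exons in GENCODE M21. Other named genes also share exon sequence with a tested gene on the opposite strand and have the same limit, among them Hspe1, Serpinc1, Cp, Ndufa2, Clk3 and Atf5. The count test was tested on simulated data in which few genes changed, equally in both directions, so the choice of scale was not tested. Single values per library were compared by exact permutation. DESeq2 1.42.0 and limma 3.58.1 voom were alternatives. Same-numbered replicates were not treated as pairs in the main fits. Of 18 such pairs 5 had a correlation of deviations from the dose-group means over 0.1 (range -0.28 to 0.48). These deviations include the share class, so they cannot show whether the mice were paired.

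Text names, per direction, the 10 genes with the largest change that passed both fits without overlap whose log2 CPM averaged at least 1, leaving out predicted loci and immunoglobulin or T cell receptor segments. It adds 9 genes of general interest and up to 3 genes per list with the smallest p. Ndufs5, Fetub and Rpl37 were added for their promoters, and further list members in brackets or lists of called genes were chosen after their values were seen. Some genes that the rule takes in are not reported here. The share classes, the 39 gene lists and the genes of interest were chosen with earlier results of these data known.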

Additional observations from a re-analysis of the deposited data

Results flagged for a closer look

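A library was picked out where its gap to the nearest library of its class, set against the range of the class, exceeded the 95% limit of Dixon's test. Of 190 values tested in this way 17 were picked out, where chance gives about 1 in 20. Within the low-share class 9 of the 10 were high-dose replicate 1, which had the lowest mitochondrial share. It was the highest of the 4 for Gstm6 (118 CPM), Hsd17b10 (205 CPM), Tfam (61.1 CPM), Isg15 (43.5 CPM), Bst2 (226 CPM) and Hspe1 (245 CPM), and the lowest for Snhg12 (30.4 CPM). It was also the highest for the muscle genes Mylpf (83.1 CPM) and Tnni2 (74.0 CPM). Low-dose replicate 3 was the highest of the 4 for Hbb-bt (147 CPM).

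Within the high-share class control replicate 1 was the highest for Ndufa1 (18.0 CPM), Otc (774 CPM) and Mbl1 (87.5 CPM), and control replicate 2 for the B cell gene Cd22 (34.2 CPM). Medium-dose replicate 2, the high-share library nearest the threshold, was the highest for Hmgcs1 (632 CPM). Low-dose replicate 2 was the highest for Tnni2 (2.15 CPM) and Foxa3 (88.7 CPM).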

How the results depend on the processing

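The scale of the libraries decides how many genes are called lower. With nuclear totals as the scale 1380 genes were higher and 4990 lower (21.7% of calls higher, against 54.6% with TMM), and within dose groups 1057 and 3648. With whole-library totals these were 8964 and 45 (99.5% higher), and within dose groups 8528 and 22. On that scale 17 named genes changed sign: Kmt2a 0.11, Chd8 0.16, Ncoa6 0.18, Snhg12 0.13, Snhg17 0.034, Malat1 0.44, Neat1 0.032, Jpx 0.071, Clk2 0.13, Clk3 0.052, Tnf 0.16, Nfkb1 0.42, Rela 0.50, Nr1h4 0.17, Onecut2 0.26, Nfil3 0.11 and Tef 0.21. Ppargc1a, which was not called, was at -0.22 with nuclear totals and -0.086 with the replicate block.

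With a class threshold of 45% the counts within dose groups were 790 and 348, and 1393 genes were lower without dose. The share as a slope gave 2188 lower genes within dose groups. The replicate block gave 1845 higher and 1338 lower genes, and 757 and 309 within dose groups. Whether the numbers pair the mice is not known. No replicate 2 is in the low-share class, so class and replicate number are partly confounded. With high-dose replicates 1 and 3 both left out, an alternative added after seeing the data, 1364 genes were higher and 550 lower, and 1063 and 270 within dose groups. Mylpf and Tnni2 then stood at -0.49 and -5.87, and at -0.080 and -2.14 with limma voom. Thinning every library to the same nuclear depth, also added afterwards, gave 2325 higher and 2078 lower genes. DESeq2 gave 2764 and 2589, and voom 2870 and 2581. The remaining settings moved these counts by under 1.5 times.

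Leaving out each library in turn gave 1928 to 2737 higher and 1338 to 2112 lower genes, the lowest of both without high-dose replicate 1. Within dose groups the ranges were 655 to 1959 and 82 to 1499. The lowest of both came without high-dose replicate 2, the only high-share library at that dose, and 680, 646 and 968 genes were lower without low-dose replicate 3, medium-dose replicate 1 and medium-dose replicate 3. Mylpf ran from -0.41 to 3.49 and Tnni2 from -0.85 to 5.48. The albumin difference stayed between 6.07 and 6.92 percentage points and that of the 100 highest genes between 8.72 and 11.5. The number of detected genes differed by 177 to 467 when at least 1 count was required and by -519 at 5 counts. Over 92 named genes and 26 settings, 2276 of 2385 values kept direction and call, 78 lost the call, 6 gained it and 25 reversed. Apart from scale, the causes were not tested. Nuclear depth of 5180318 counts in the shallowest library limits what can be seen for low genes.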
